A study of Homo sapiens with 8 samples.

Results

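The miR-17 seed family is a set of microRNAs that share the bases by which a microRNA finds its targets. It was taken here as the 5p strands of miR-17, miR-20a, miR-20b, miR-93, miR-106a and miR-106b, by name. Of these 6, 5 had an entry among the 2867 entries of the table (903 known and 1964 predicted microRNAs), and miR-106b-5p was not analysed here. All 5 passed the filter on low counts. The libraries hold small RNA of HEK293 cells, an established human embryonic kidney line: 4 from cells transfected with 100 nM of an antisense oligonucleotide (ASO) and 4 controls with no ASO, all taken after 48 h. The library names carry miR-31, and the series title speaks of ASOs that lock the conformation of precursor microRNAs. The stated question was whether the ASO acted on RNAs other than its target. No group received an unrelated ASO, and the labels do not say whether controls were mock-transfected or whether the libraries of a group are separate cultures. The p-values below therefore measure only how these libraries vary, which may be technical.

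A mature microRNA guides an Argonaute protein to messenger RNAs that pair with its seed, and lowers their stability and translation. The members come from 3 paralogous clusters of vertebrate genomes, each transcribed as a precursor RNA from which several hairpins are cut. MYC and E2F factors are known to drive the miR-17-92 cluster, and known targets of the family include E2F1, the cell-cycle inhibitor CDKN1A and the pro-apoptotic BCL2L11.

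The mature sequences (RefSeq, GRCh38.p14) are shown because their likeness bears on how reads can be told apart. The seed, bases 2 to 8 from the 5′ end, is in capitals.
miR-17-5p: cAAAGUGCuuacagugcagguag
miR-20a-5p: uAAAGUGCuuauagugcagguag
miR-93-5p: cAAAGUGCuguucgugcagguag
miR-106a-5p: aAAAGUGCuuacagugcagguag
miR-20b-5p: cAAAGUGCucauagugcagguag
miR-106b-5p: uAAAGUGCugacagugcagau
All 6 carry the same seed. With positions counted from 1 at the 5′ end and miR-17-5p given first, miR-106a-5p differs from it only by C1A. miR-20a-5p differs by C1U and C12U, miR-20b-5p by U10C and C12U, and miR-93-5p by U10G, A11U, C12U and A13C. From position 14 to their 3′ end at position 23 the 5 measured members are identical, so their differences lie at the first base and in positions 10 to 13. miR-106b-5p has C1U, U10G and G20A, and its RefSeq form is 2 bases shorter. How reads that fit more than 1 member were counted is not given in the sources used here, so the division of counts between miR-17-5p and miR-106a-5p in particular is uncertain. No other entry of the table had counts identical to those of a member.

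The genes lie on 3 chromosomes (GRCh38, GENCODE 29). MIR17, on chromosome 13 from 91350605 to 91350688, and MIR20A, from 91351065 to 91351135, are on the plus strand within MIR17HG, a noncoding host gene, and overlap exons of 2 of its 3 annotated transcripts. MIR93, on chromosome 7 from 100093768 to 100093847, and MIR106B, from 100093993 to 100094074, are on the minus strand in introns of MCM7, which encodes a subunit of the replicative helicase. MIR106A, on chromosome X from 134170198 to 134170278, and MIR20B, from 134169809 to 134169877, are on the minus strand and overlap an exon of the annotated transcript AC002407.1.

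Total counts ran from 8168828 to 11677123 per library. Control library 1, with 10496804 counts, was the lowest library for every member, and values without it are given below. The target miR-31-5p ranged from 637 to 1018 CPM with ASO and from 350 to 1056 CPM in controls, so the target did not separate the groups and the directions below depend on the labels alone. Of 23 microRNAs that mark blood, liver, muscle, endothelial, mesenchymal, neural or placental cells, 14 had an entry under the exact name listed. Of these, 7 were tested and 0 passed the threshold. The liver marker miR-122-5p had groups that did not overlap: control values lay between 10.1 and 14.9 CPM, and ASO values between 24.9 and 40.6 CPM. The log2 fold change was 1.30, with an SE of 0.20 and an adjusted p = 0.0516 in edgeR. Its part in the members' values was not tested. The highest set was neural, with 1 entry, at 3089 to 3467 CPM with ASO and 3418 to 3764 CPM in controls. The neural marker miR-128-3p was listed without a copy number, so the entries miR-128-1-3p and miR-128-2-3p are not in that set. miR-128-1-3p alone ranged from 16840 to 20717 CPM with ASO and from 18611 to 25777 CPM in controls. The endothelial marker ranged from 833 to 901 CPM with ASO and from 819 to 944 CPM in controls. Summed mesenchymal markers ranged from 121.9 to 134.4 CPM with ASO and from 119.0 to 127.1 CPM in controls. In any library the summed muscle markers reached at most 9.62 CPM, the blood markers 1.09 CPM and the placental marker 0.486 CPM. No microRNA defines HEK293 cells, so the cell type itself was not checked.

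The family was dominated by miR-93-5p, miR-20a-5p and miR-17-5p, and its members from the X chromosome were minor. Levels are in CPM, which is counts scaled to the library total, here with TMM factors and no division by length. The deposited entries are 23 bases long, or 24 for miR-106a-5p. Adapter ligation favours some sequences, so levels of different microRNAs are only roughly comparable.

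miR-93-5p, the member from the MCM7 intron, stood at 7280, 9743, 9467 and 6789 CPM in ASO libraries 1 to 4 and at 3483, 5256, 6556 and 7584 CPM in control libraries 1 to 4. ASO libraries 2 and 3 lay above every control, while ASO libraries 1 and 4 lay below control library 4, so the groups overlapped. miR-20a-5p, from miR-17-92, stood at 3462, 5145, 5041 and 3251 CPM with ASO and at 1652, 2714, 3477 and 3974 CPM in controls. miR-17-5p, from the same cluster, stood at 2873, 3910, 3903 and 2697 CPM with ASO and at 1413, 2254, 2756 and 3135 CPM in controls. For both, ASO libraries 2 and 3 were again the highest and control library 1 the lowest.

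The members from the X chromosome were far lower. miR-106a-5p stood at 125.6, 164, 119 and 105 CPM with ASO and at 58.9, 85.0, 105.7 and 129 CPM in controls. Its ASO library 3, unlike that of the other members, was not above all controls. miR-20b-5p stood at 84.4, 127, 129 and 79.3 CPM with ASO and at 43.1, 61.9, 88.6 and 101 CPM in controls. Its lowest count, 434 in control library 1, had a Wilson 95% interval of 37.6 to 45.4 CPM before TMM scaling. On that scale the 8 libraries ranged from 41.3 to 129 CPM. Such intervals hold for the counting error of reads alone. They may be too narrow even for that of molecules, because PCR copies of 1 molecule are counted as separate reads.

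The order of the members was nearly the same in all libraries. miR-93-5p exceeded miR-20a-5p, miR-20a-5p exceeded miR-17-5p and miR-17-5p exceeded miR-106a-5p in 8 of 8 libraries. miR-106a-5p exceeded miR-20b-5p in 7 of 8, the exception being ASO library 3. Across libraries the ranges of miR-20a-5p and miR-17-5p overlapped even though miR-20a-5p was the higher within every library, and the ranges of miR-106a-5p and miR-20b-5p overlapped as well.

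**Figure D1:**
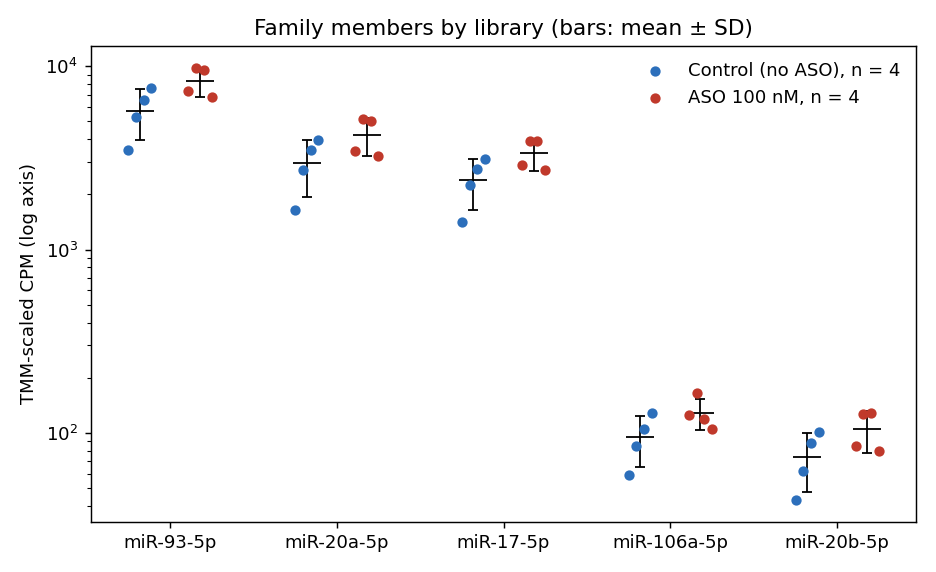
TMM-scaled CPM (log axis) of the 5 members in 4 control libraries (blue) and 4 ASO libraries (red), each point a library, with mean ± SD. For every member the ASO and control points overlap, and control library 1 is the lowest point.

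With ASO, each member had a higher mean than in controls, and none passed the test. The mean of miR-93-5p came to 8320 ± 1502 CPM for ASO and 5720 ± 1770 CPM for controls (SD, n = 4), with a fitted fold of 1.45 (95% interval 0.979 to 2.16). Its log2 fold change was 0.54 (SE 0.25, adjusted p = 0.445, edgeR quasi-likelihood test). miR-20a-5p averaged 4225 ± 1007 and 2954 ± 1011 CPM, or 0.52 on the log2 scale (SE 0.29, adjusted p = 0.483 in edgeR). miR-17-5p averaged 3346 ± 651 and 2389 ± 744 CPM, or 0.49 on the log2 scale (SE 0.25, adjusted p = 0.464 in edgeR). miR-20b-5p averaged 105 ± 26.6 and 73.6 ± 26.1 CPM (0.51, SE 0.30, adjusted p = 0.505 in edgeR), and miR-106a-5p 129 ± 25.3 and 94.6 ± 29.8 CPM (0.44, SE 0.25, adjusted p = 0.487 in edgeR). All 5 intervals included no change, and their upper ends ran from 2.03-fold for miR-106a-5p to 2.30-fold for miR-20b-5p.

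Of the 745 entries tested, 0.134% (1 entry, miR-503-5p of the miR-15/16 family, with a log2 fold change of −0.91 and an adjusted p of 0.00854) passed in edgeR's test, and of the 5 members 0 passed. Without adjustment, 78 entries (10.5%) and 0 members had a p under 0.05. That count of 1 was 0 without control library 2, 5 without control library 4, and 2 without control library 1 or 3 or without ASO library 1 or 4. The ranges of both groups were apart in 8.32% of entries (3.09% with all ASO libraries higher) and in 0 of 5 members. The fitted fold was above 1 in 51.7% of all entries, with a median log2 fold change of 0.01. It was above 1 in 5 of 5 members, with a median of 0.51. The 5 members are not independent, since their levels moved together over the libraries, as given below. DESeq2 called 5.45% of the entries to which it gave an adjusted p, and 0 members.

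The size of the difference rested partly on single libraries. Without control library 1 the log2 fold change of miR-17-5p went from 0.49 to 0.31 and that of miR-20a-5p from 0.52 to 0.33. miR-93-5p went to 0.38, miR-106a-5p to 0.28 and miR-20b-5p to 0.33. Without control library 4 the values rose instead, from 0.63 for miR-106a-5p to 0.71 for miR-93-5p. Dixon's gap ratio, a check for outlying libraries within a group, flagged 0 of 22 sets of values, so control library 1 did not count as an outlier by it. Over 80 refits of the 5 members under other scalings, filters, tests and left-out libraries, the log2 fold change ran from 0.28 to 0.71. All were above 0, and the adjusted p ran from 0.165 to 0.775. The 80 refits reuse the same libraries and are not independent.

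**Figure D2:**
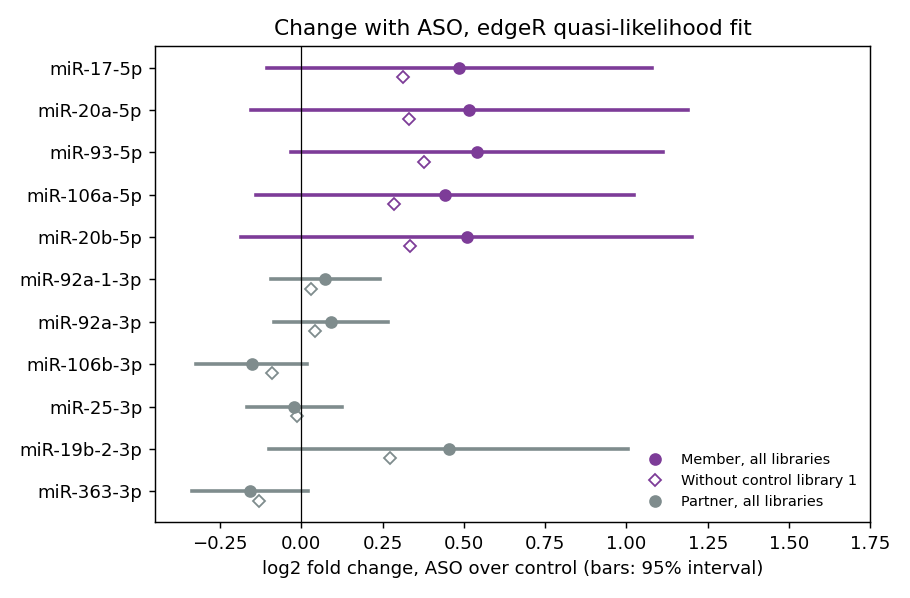
Log2 fold change of the 5 members (purple) and 6 cluster partners (grey), ASO over control, from edgeR's quasi-likelihood fit with 95% intervals; open diamonds are the values without control library 1. All intervals include 0, and the members' values fall to 0.28 to 0.38 without that library.

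Added together, the 5 members took from 0.638% to 1.94% of a library's counts. Their summed level was 13826, 19090, 18660 and 12922 CPM in ASO libraries 1 to 4 and 6650, 10370, 12983 and 14923 CPM in control libraries 1 to 4. The geometric mean with ASO was 1.48 times that in controls, and 1.26 times without control library 1, given as a description. The same ratio was 1.46 for the pair from miR-17-92 (1.23 without control library 1), 1.496 for miR-93-5p (1.29) and 1.43 for the pair from the X chromosome (1.23).

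The makeup of the family moved little while its level spanned 2.87-fold between the lowest and the highest library. miR-93-5p made up 51.7% ± 0.996 of the members' counts with ASO and 51.1% ± 0.863 in controls (SD, n = 4). miR-20a-5p made up 26.0% ± 1.09 and 26.1% ± 0.883, and miR-17-5p 20.8% ± 0.197 and 21.3% ± 0.306. Of the 5 shares, only that of miR-17-5p had groups that did not overlap. It was 20.5% to 20.9% with ASO and 21.0% to 21.7% in controls, with the nearest libraries at 20.92% and 21.01%. The difference of −0.539 percentage points was not tested. Shares of this kind were not computed outside the family, so no background rate stands beside this count, and the shares depend on each other. miR-106a-5p (0.805% and 0.846%) and miR-20b-5p (0.644% and 0.651%) made up the rest. Within a library the count of miR-93-5p was 2.33 to 2.53 times that of miR-17-5p, a span of 1.09-fold over 8 libraries, although the genes lie on different chromosomes. miR-20a-5p was 1.17 to 1.32 times miR-17-5p, its cluster neighbour. miR-106a-5p was the least regular: its ratio to miR-20b-5p, its cluster neighbour, ran from 0.927 in ASO library 3 to 1.49 in ASO library 1.

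The other microRNAs listed for the same clusters differed from the members in part. Of 26 names listed for the 3 clusters, 11 had an entry and 9 were tested, and 0 passed in either direction, against the 0.134% of all entries that passed. Their median log2 fold change was 0.07, with 5 of 9 folds above 1. The 9 are not independent, since miR-92a-2-3p repeats the counts of miR-92a-3p, and those of miR-92a-1-3p are close to them. These miR-92a entries are all among the 5 folds above 1, and the median is the value of miR-92a-1-3p.

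In the MCM7 intron, miR-106b-3p is the strand opposite the unmeasured miR-106b-5p, and miR-25-3p belongs to the seed family of miR-92a. Their sequences are shown because they share a precursor with miR-93-5p but not its seed, which is again in capitals.
miR-106b-3p: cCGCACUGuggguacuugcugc
miR-25-3p: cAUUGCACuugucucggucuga
miR-106b-3p stood at 3375, 3588, 3146 and 3605 CPM in ASO libraries 1 to 4 and at 4170, 3923, 3509 and 3635 CPM in control libraries 1 to 4 (log2 fold change −0.15, SE 0.07, adjusted p = 0.445 in edgeR). It was highest in control library 1, where miR-93-5p was lowest. miR-25-3p, the most abundant partner at this locus, stayed between 24970 and 29435 CPM in all 8 libraries (−0.02, SE 0.06, adjusted p = 0.947 in edgeR; the direction flipped to 0.06 with quantile normalization and to 0.003 with library totals alone). The ratio of miR-93-5p to miR-106b-3p ran from 0.835 in control library 1 to 3.01 in ASO library 3, a span of 3.60-fold, and that of miR-93-5p to miR-25-3p spanned 2.88-fold. The ratio of miR-106b-3p to miR-25-3p spanned 1.25-fold. The ratios of miR-93-5p to the other 4 members, which are encoded on other chromosomes, had spans of 1.09-fold to 1.37-fold.

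At miR-17-92, the most abundant partner was miR-92a-1-3p, of the miR-25 seed family, with means of 60890 ± 2820 CPM for ASO and 57874 ± 4959 CPM for controls (log2 fold change 0.07, SE 0.07, adjusted p = 0.716 in edgeR). It spanned 1.27-fold over the libraries, against 2.77-fold for miR-17-5p and 3.115-fold for miR-20a-5p. Like the members it was lowest in control library 1, at 50631 CPM against 57558 CPM or more in the others. Its counts were close to those of the entry miR-92a-3p in every library, for instance 628102 and 590619 in ASO library 1. The X-chromosome entry miR-92a-2-3p has the same counts as miR-92a-3p, so the locus of the miR-92a-1-3p counts is uncertain too. miR-18a-5p had 0 counts in 4 libraries and 1035 to 1560 in the other 4, with a fitted interval of −7.22 to 4.48 on the log2 scale. miR-19a-3p was above 0 only in ASO library 3 (2143 counts) and miR-19b-1-3p only in control libraries 2 and 3 (907 and 867 counts). In those 2 libraries miR-19b-2-3p, from the X chromosome, had 911 and 866 counts, nearly the same numbers, so the locus of these counts is uncertain. The 0s of miR-18a-5p, miR-19a-3p and miR-19b-1-3p do not show that these microRNAs were absent, since how reads were assigned to entries is not given.

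On the X chromosome, miR-363-3p, which shares the seed of miR-25, stayed between 593 and 754 CPM (−0.16, SE 0.08, adjusted p = 0.445 in edgeR). miR-18b-3p had only 0 to 19 counts per library (0.70, SE 0.90, adjusted p = 0.807 in edgeR). The entry miR-92a-2-3p has the counts of miR-92a-3p in every library, so they cannot be placed at this locus. Its means were 57519 ± 2800 CPM for ASO and 53995 ± 4950 CPM for controls (log2 fold change 0.09, SE 0.08, adjusted p = 0.638 in edgeR). miR-19b-2-3p, of the miR-19 family, whose counts may include those of miR-19b-1-3p, had the smallest spans against the members. It stood at 123, 138, 143.5 and 109 CPM with ASO and at 53.7, 97.4, 104 and 120 CPM in controls, and was also lowest in control library 1 (0.45, SE 0.24, adjusted p = 0.464 in edgeR). Over the 8 ratios computed between a member and a partner of its own cluster the median span was 2.74-fold, with 1.43-fold and 1.44-fold for the ratios to miR-19b-2-3p. The 8 include the ratios to miR-92a-1-3p, whose locus is uncertain. Over the 10 ratios between members, spans ran from 1.09-fold to 1.60-fold.

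**Figure D3:**
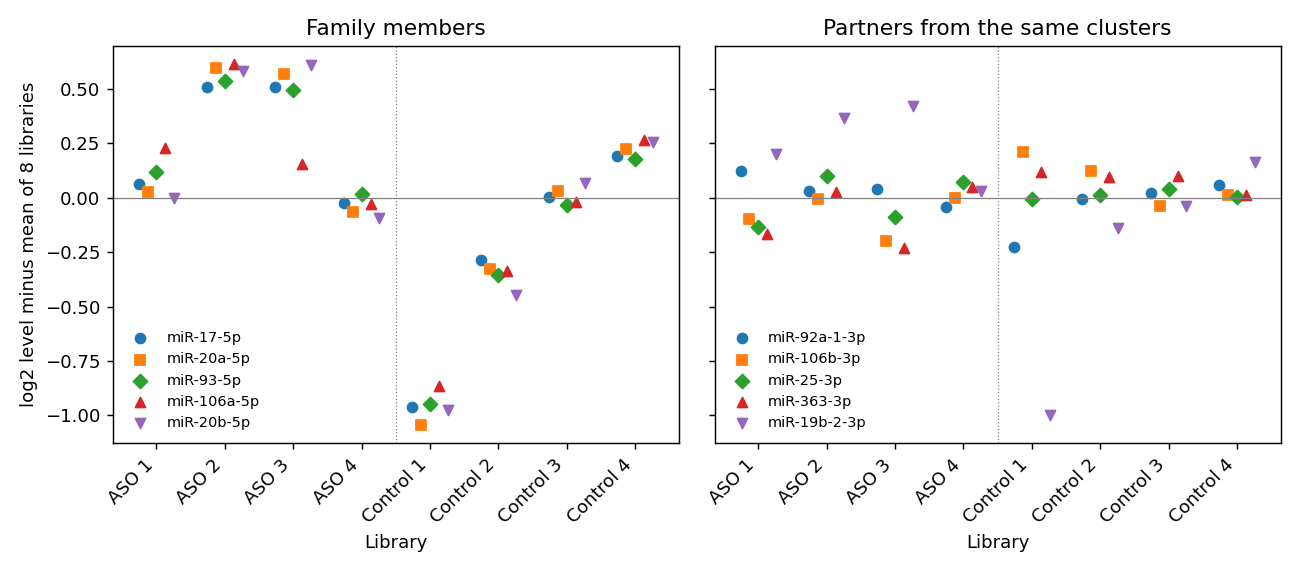
Log2 level of the 5 members (left) and 5 cluster partners (right) in each library, minus the mean of the 8 libraries. The members lie close together in nearly every library and far below their mean in control library 1, while miR-106b-3p, miR-25-3p and miR-363-3p stay near 0. miR-92a-1-3p also stays near 0 but is lowest in control library 1, and miR-19b-2-3p is low there with the members.

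The likeness of the members across libraries was part of a pattern that many microRNAs shared. Pearson's r of log2 levels between pairs of members ran from 0.924 to 0.998 over the 8 libraries (10 pairs) and from 0.819 to 0.997 over the 7 without control library 1, given as a description since the points share libraries and scaling. Of 163 other known microRNAs with a mean of at least 100 CPM, 45 (27.6%) had an r of at least 0.9 with the summed family level and 30 (18.4%) had one of −0.9 or lower. Without control library 1, 27 (16.6%) reached 0.9. Few of them varied as much: the median span of the 163 was 1.44-fold, and 4.91% spanned at least the 2.80-fold of miR-93-5p. Of the partners, miR-19b-2-3p had an r of 0.97 with the summed family level, miR-92a-3p of 0.85 and miR-92a-1-3p of 0.80. Without control library 1 these were 0.96, 0.48 and 0.32. Over the 8 libraries the r of miR-106b-3p was −0.84, of miR-363-3p −0.59 and of miR-25-3p −0.0004.

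The microRNAs most like the family were not of its seed or clusters. They were miR-374b-5p (r = 0.995 over 8 libraries), miR-194-5p (0.994), miR-484 (0.993), miR-16-5p (0.989), which restrains cyclins, and miR-708-5p (0.988). miR-374b-5p, for instance, stood at 2106, 2650, 2798 and 1901 CPM with ASO and at 988, 1485, 1881 and 2069 CPM in controls. The most opposite were miR-671-3p (−0.997), miR-128-1-3p (−0.989) and miR-129-5p (−0.989). miR-671-3p stood at 326, 277, 285 and 351 CPM with ASO and at 522, 388, 353 and 317 CPM in controls, highest where the members were lowest. None of these 8 passed edgeR's test between the groups. By Spearman's rho, 1 of the 5 most alike stayed among the first 5. The 3 deepest libraries, ASO library 2 (11677123 counts), control library 4 (11228954) and ASO library 3 (11136043), held the 3 highest summed family levels, and within the ASO group the order of depth was that of the family level. Control library 1 (10496804 counts, 6650 CPM) and the shallowest, control library 3 (8168828 counts, 12983 CPM), did not follow that order. The part of depth in the pattern was not tested.

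**Figure D4:**
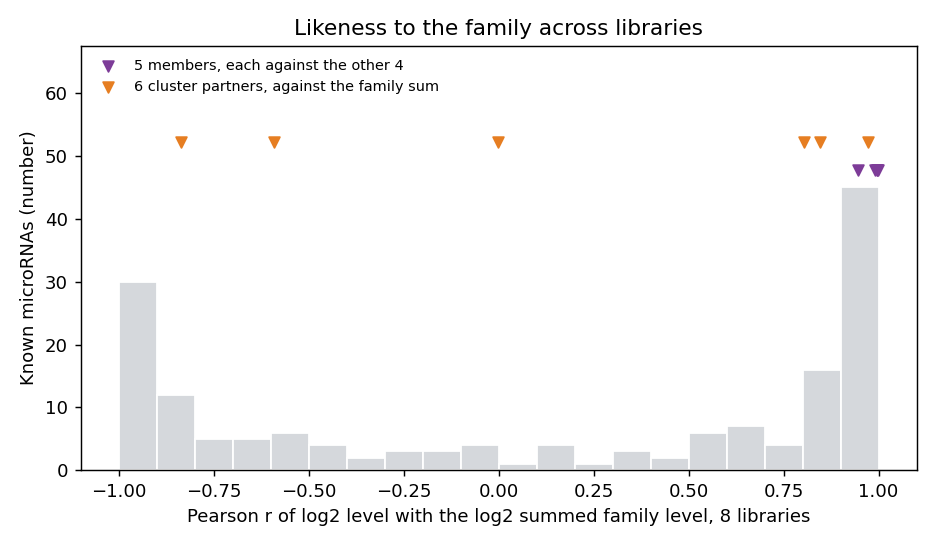
Number of known microRNAs (163 with a mean of at least 100 CPM, members left out) by Pearson's r of their log2 level with the log2 summed family level over 8 libraries. Purple marks are the 5 members against the sum of the other 4, from 0.947 to 0.999, and orange marks are 6 cluster partners, from −0.84 to 0.97; the tallest bars are at both ends.

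Other microRNAs with this seed were almost undetected. RefSeq gives the seed to 2 further mature microRNAs, of which miR-519d-3p, from a placental cluster, had 5 counts in all, in ASO library 4, and miR-526b-3p was not analysed here. A further set carries the same bases shifted by 1 position (bases 2 to 7 equal to bases 3 to 8 of the members). It holds the miR-302 and miR-372 group, known from pluripotent cells, and several miR-519 and miR-520 microRNAs. Of 15 such RefSeq microRNAs 5 had an entry and 3 were tested, and 0 passed. The highest, miR-302b-3p, ranged from 27.3 to 32.1 CPM with ASO and from 34.7 to 40.0 CPM in controls, so its groups did not overlap (log2 fold change −0.36, SE 0.09, adjusted p = 0.354 in edgeR). In control library 1, where the members were lowest, it lay between the other controls.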

How the data were processed

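Small RNA of 8 HEK293 libraries was sequenced after Qiagen extraction and NEB library preparation, per the labels' protocols. bcl2fastq 2.20, Trimmomatic 0.30, edgeR 3.4.6 and GRCh38 are named in the submitters' processing notes; no source used here names the aligner or counter. The authors deposited whole-number counts per entry and library, and columns headed TPM that were CPM (within 0.223 CPM of count over total). Groups came from the titles.

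The 745 entries with a mean count of 10 or more and a count above 0 in 4 or more libraries were tested with edgeR 4.0.16 (quasi-likelihood, TMM factors 0.964 to 1.02, two-sided, Benjamini-Hochberg over all 745, threshold 0.05). SE is the log2 fold change over the square root of F. Levels are TMM-scaled CPM of the tested entries. Alternatives used DESeq2 1.42.0 and limma 3.58.1; the test was tried on simulated data. Likeness was Pearson's r on log2(CPM + 1) against the log2 summed members, over 8 libraries. No replicate pair looked like a repeat deposit (chi-square over degrees of freedom at least 135). The members, gene lists and rules were chosen with earlier results of these data known. Named were all members, the partners, every entry past the threshold, the 5 most alike and the 3 most opposite.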

Additional observations from a re-analysis of the deposited data

How the results depend on the processing

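No member passed the threshold under any of the 16 alternatives run for each, and all 80 log2 fold changes, which are not independent, were above 0. The count of changed entries, 1 in edgeR's quasi-likelihood test, was 1 with median-ratio scaling and with library totals alone. It was 23 with DESeq2, 3 with quantile normalization in limma, 5 with a mean count of at least 100 and 4 with known microRNAs only. In edgeR it was 0 with no filter, where 160 entries had an unadjusted p under 0.05, and 0 with a replicate block, where 65 did. On leaving out 1 library it ran from 0 to 5. The cause was not tested. miR-25-3p, at −0.02, turned to 0.0027 with library totals alone and 0.061 with quantile normalization, and ran from −0.060 (without ASO library 4) to 0.019 (without ASO library 1) on leaving out 1 library, with 0.0029 without ASO library 3. Of the 5 microRNAs most like the family 4 stayed among the first 5 without control library 1, and 1 with Spearman's rho.

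No clear sign of pairing by library number was seen: deviations of same-numbered libraries correlated at −0.04 to 0.20, and 1 of 4 correlated best with its own number. Such a check cannot show that the libraries were unpaired. With the replicate block the members' log2 fold changes were 0.48 to 0.58.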

Other observations

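The ratio of miR-93-5p to miR-20a-5p took values in 2 separate ranges that cut across the groups. It was 2.10 in ASO library 1, 2.09 in ASO library 4 and 2.11 in control library 1, and between 1.88 and 1.94 in the other 5 libraries. miR-20a-5p made up 24.8% to 25.2% of the members' counts in those 3 libraries and 26.2% to 27.0% in the others. The difference was seen in the data and was not tested.

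ASO library 3 held the lowest share of miR-106a-5p, 0.640% of the members' counts against 0.813% to 0.908% in the other 7 libraries. It was also the 1 library with counts of miR-19a-3p.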
